A study of Mus musculus with 4 samples.

Results

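The teneurins, latrophilins and FLRTs are 3 families of adhesion proteins that bind one another across the gap between cells. The 10 mouse genes described here are the teneurins Tenm1, Tenm2, Tenm3 and Tenm4, the latrophilins Adgrl1, Adgrl2 and Adgrl3, and Flrt1, Flrt2 and Flrt3, out of 32360 genes and unnamed transcripts on the array. They were found through the RefSeq transcript that each probe targets, which gave 18 of 39429 probes. The group was chosen by a measured value, the low ratio of Tenm1 in this comparison, so the ratios of its members are given as a description and without a test.

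RNA of dissected mouse middle ears was hybridised on 4 two-colour arrays of 1 slide. On each array an extract whose source is labelled DEP_ear was in the red dye Cy5 (the DEP channel below), and one labelled CON_ear was in the green dye Cy3 (the CON channel). The methods describe 9 male BALB/c mice aged 6 to 10 weeks, which were killed on day 14 after inhalation of diesel exhaust particles (DEPs), 1 h a day over 5 days. The methods state the concentration in different ways, and do not say how many mice are behind an extract or what the control mice inhaled, and the labels list the treatment of the control as none. The harvested block was the temporal bone area with the middle ear, so an extract can hold neighbouring tissue. The dyes were not swapped, so that dye and group cannot be told apart.

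Teneurins are large transmembrane proteins that are found in developing and adult brain, where they help axons and synapses find their partners. Their receptors, the latrophilins, are adhesion G protein-coupled receptors, named for a toxin of the black widow spider that binds them. FLRTs carry leucine-rich repeats and bind latrophilins and the netrin receptors of the Unc5 family, and FLRT proteins also interact with fibroblast growth factor receptors outside the nervous system.

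The values are log2 ratios, DEP channel over CON channel, taken from the log10 ratio that the image software wrote for each spot. A negative value is lower in the DEP channel. The direction follows the source names in the labels, although their treatment entries for DEP and for none both stand under Cy5. It is opposite to that of the study, whose text describes Slc1a2 (mean -1.61 here) and other genes low in this ratio as raised by exposure. The study also reports qRT-PCR of CHRM1, EPO, ESR1, SOS1, CD4 and IFNA1 in the direction of its array data. A ratio on at least 3 arrays was found for 17 of the 18 probes, and all 10 genes had such a probe. A gene is represented by its brightest probe. A channel is called detected on an array where the image software marked the spot as well above its background. In bulk extracts like these, fewer cells of a type and less RNA per cell cannot be told apart.

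Among the 10 genes, only Tenm1 had a mean ratio past 2-fold lower in the DEP channel, and 0 genes were past 2-fold higher. The mean was below 0 for 4 genes, against 45.8% of all genes. Over all 25694 genes with a ratio, 4.37% were past 2-fold lower and 2.37% past 2-fold higher. The ratio was below 0 on 4 of 4 arrays for 2 of the 10 genes, Tenm1 and Adgrl3, against 10.9% of all genes. It was above 0 on 4 of 4 arrays for 1 gene, Flrt3, against 16.2% of all genes. The median over the 10 genes was 0.05, beside 0.03 over all genes. Apart from Tenm1, Adgrl1 was past 2-fold lower on arrays 1 and 2 by its brightest probe, and Adgrl3 was below 0 on every array at signals near the background. For 6 of the 10 genes, Tenm2, Tenm4, Adgrl1, Flrt1, Flrt2 and Flrt3, the brightest probe was detected in the DEP and the CON channel on each of the 4 arrays. Of these 6 genes, 0 were past 2-fold in either direction, where 2.45% of genes read as fully were past 2-fold lower and 0.703% past 2-fold higher. A mean below 0 was found for 2 of the 6, Adgrl1 and Flrt1, against 45.6% of such genes.

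**Figure D1:**
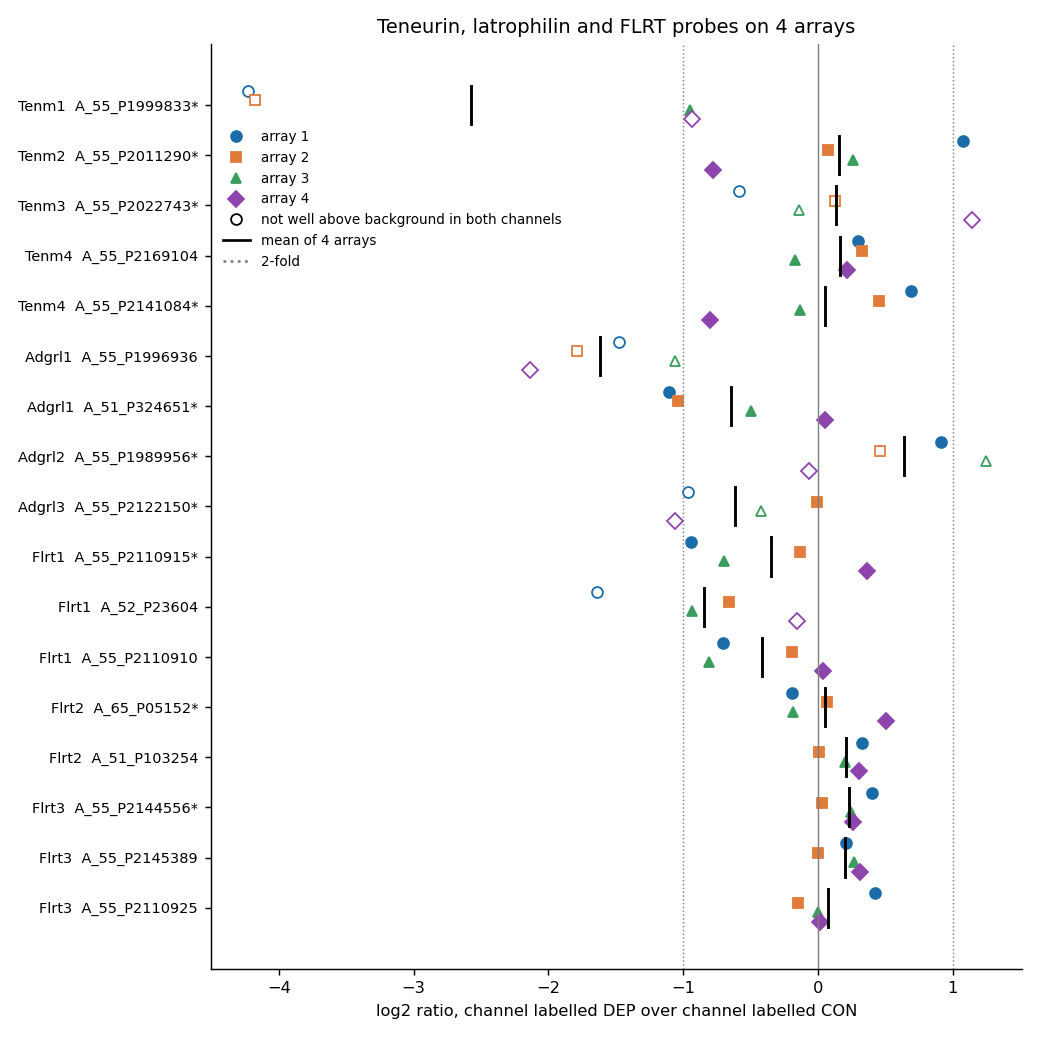
The x axis gives the log2 ratio (DEP over CON) for each of the 17 probes with ratios (rows, brightest probe of a gene with an asterisk) on arrays 1 to 4, with the mean as a bar. Tenm1 lies at -4.23 and -4.17 on arrays 1 and 2 and near -0.9 on the others, while the probes of Flrt2 and Flrt3 lie between -0.19 and 0.50.

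Tenm1 was measured by 1 probe (A_55_P1999833). Its log2 ratio was -4.23 on array 1, -4.17 on array 2, -0.95 on array 3 and -0.93 on array 4. The mean was -2.57 ± 1.88 (SD, n = 4 arrays), and it was -1.33 when the ratio was taken after normexp background correction and loess. No fold is given, as the DEP channel was detected on 1 array only. The arrays fell into a pair of low ratios and a pair near 2-fold. Without arrays 1 and 2 together, a choice made after the data were seen, the mean was -0.94.

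The signals of each channel are processed intensities brought to 1 scale across arrays, a step that leaves the ratio of each array as it was. In the CON channel, Tenm1 read 439, 286, 124 and 39.1 on arrays 1 to 4. In the DEP channel it read 23.4, 15.8, 64.0 and 20.5, in the same order. The CON channel was detected on all 4 arrays, and the DEP channel only on array 3. The ratios of arrays 1, 2 and 4 therefore rest on a red signal at the background. With each channel raised to the lowest signal that counted as detected on its array, the ratios were -4.23, -3.81, -0.95 and -0.85, and the mean -2.46.

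In the CON channel, where all 4 values were detected, the signal of Tenm1 spanned 11.2-fold between arrays, with an SD of 1.54 on the log2 scale. Its lowest value, 39.1 on array 4, lay close to the lowest detected signal of the CON channel there, 37.0. For the 6 other members detected in that channel on all arrays the SD ran from 0.07 for Tenm2 to 0.65 for Adgrl1. No such spread can be given for the DEP channel of Tenm1, which was detected on 1 array. These values made the ratio by which the group was chosen and are a description only.

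**Figure D2:**
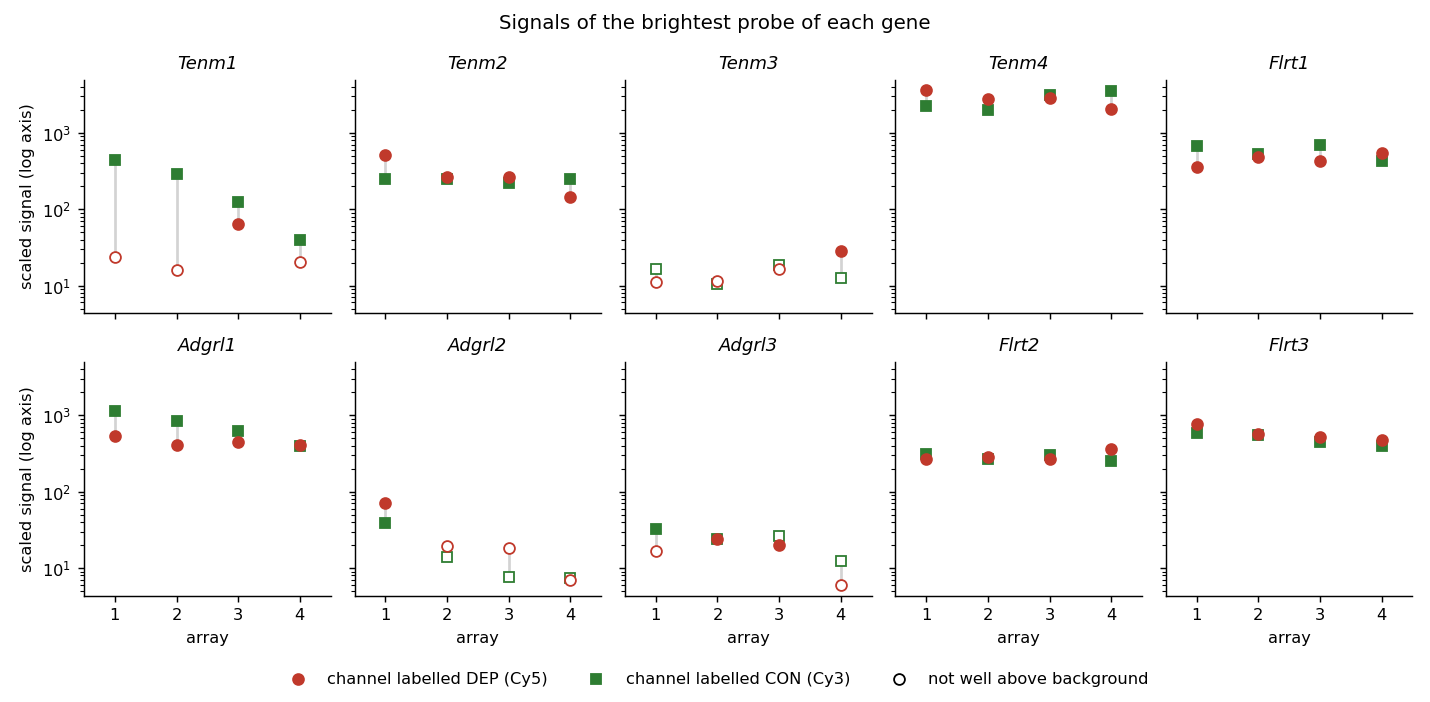
Each panel gives the scaled signal of the brightest probe of a gene (log axis) on arrays 1 to 4, with circles for the DEP channel and squares for the CON channel, open where the channel was not detected. In Tenm1 the squares lie between 39.1 and 439 and 3 of 4 circles are open, and in Adgrl1 the squares lie between 399 and 1150.5 and the circles between 404 and 536.

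Tenm2, a teneurin that binds latrophilins at synapses, had ratios of 1.08, 0.08, 0.26 and -0.78 on arrays 1 to 4. Its mean of 0.16 ± 0.76 (SD, n = 4 arrays) was smaller than the spread. The pattern came from the DEP channel, which read 516, 261, 268 and 144, while the CON channel lay between 223 and 248. This teneurin was thus nearly even across the extracts labelled CON, in which Tenm1 spanned 11.2-fold, and on array 1 it was the higher in the DEP channel.

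Tenm4, which has a part in myelination and in early development, was measured by 2 probes. The brighter (A_55_P2141084) read 3592, 2729, 2869 and 2018 in the DEP channel and 2230 (2229.57), 1989, 3145 and 3508 in the CON channel. Its ratios were 0.69, 0.46, -0.13 and -0.80, with a mean of 0.05 ± 0.66 (SD, n = 4 arrays). They were above 0 on arrays 1 and 2, where Tenm1 was lowest, and below 0 on arrays 3 and 4. The dimmer probe (A_55_P2169104) had 0.30, 0.33, -0.17 and 0.22, with a mean of 0.17 ± 0.23, so the probes disagreed on array 4.

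Tenm3, which guides the wiring of the visual system and hippocampus, could barely be read. Its probe for one transcript (A_55_P2022743) was detected in the DEP channel on array 4 alone, with a signal of 28.0 there, and in the CON channel on none. Its probe for another transcript (A_55_P2028971) was not detected in either channel on any array and had no ratio. No fold is given for Tenm3.

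Among the latrophilins, only Adgrl1 was detected in both channels on all 4 arrays. This receptor, also known as latrophilin 1, is abundant in brain and sits at presynaptic and postsynaptic sites. Its brighter probe (A_51_P324651) had ratios of -1.10, -1.04, -0.50 and 0.05, with a mean of -0.65 ± 0.54 (SD, n = 4 arrays). The CON channel read 1150.5, 829, 624 and 399, and the DEP channel 536, 404, 442 and 413. The green signal of Adgrl1 spanned 2.88-fold and the red signal 1.33-fold. Its green signal was highest on array 1 and lowest on array 4. By their brightest probes, Tenm1, Flrt2, Flrt3 and the dim Adgrl2 and Adgrl3 were too.

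The dimmer probe for Adgrl1 (A_55_P1996936) had ratios of -1.48, -1.79, -1.06 and -2.14, with a mean of -1.62 ± 0.46 (SD, n = 4 arrays). It was detected in the CON channel on 2 arrays and in the DEP channel on none, so no fold is given for it. Averaging both probes placed Adgrl1 past 2-fold lower at -1.13, which the brighter probe alone did not.

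Adgrl2 and Adgrl3 were dim. Adgrl2, a latrophilin of postsynaptic sites that is also expressed outside the brain, was detected only on array 1, where it read 72.1 in the DEP channel and 38.4 in the CON channel, a log2 ratio of 0.91. Its mean ratio of 0.64 ± 0.57 (SD, n = 4 arrays) rests on 3 further arrays at the background. Adgrl3, the latrophilin whose human counterpart has been linked to attention deficit, had ratios of -0.96, -0.01, -0.42 and -1.06 and a mean of -0.61 ± 0.49. It was detected on 2 arrays in each channel, and in both channels only on array 2, where they read 23.8 and 24.0. No order among the latrophilins can be read from these probes, as signals of different probes are not on 1 scale.

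Flrt1, an FLRT of brain and kidney, was measured by 3 probes. The brightest (A_55_P2110915) had ratios of -0.94, -0.13, -0.70 and 0.36, with a mean of -0.35 ± 0.58 (SD, n = 4 arrays). The next (A_55_P2110910) had -0.70, -0.19, -0.81 and 0.04, with a mean of -0.42 ± 0.40. Both were lowest on arrays 1 and 3 and above 0 on array 4, and both were read in full on all arrays. The dimmest (A_52_P23604), which was detected in both channels only on arrays 2 and 3, had a mean of -0.85 ± 0.62. The direction of the mean was the same for the 3 probes, while its size was smaller than the spread for the brightest.

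By the SD of the ratio of the brightest probe, Flrt3 and Flrt2 varied least among the members. Flrt3, which takes part in cell adhesion and fibroblast growth factor signalling in embryos and at synapses, read 769, 565, 525 and 481 in the DEP channel and 584, 554, 442 and 401 in the CON channel by its brightest probe (A_55_P2144556). Its ratios of 0.40, 0.03, 0.25 and 0.26 gave a mean of 0.23 ± 0.15 (SD, n = 4 arrays), a difference of 1.18-fold. The other probes for Flrt3 gave means of 0.20 ± 0.14 and 0.07 ± 0.25. The second of these was below 0 on 2 of 4 arrays, so the direction was not shared by every probe on every array.

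Flrt2, which binds Unc5 receptors and is made by many tissues of mesenchymal origin, had ratios of -0.19, 0.07, -0.18 and 0.50 by its brighter probe (A_65_P05152), with a mean of 0.05 ± 0.33. The dimmer probe (A_51_P103254) had 0.33, 0.01, 0.20 and 0.31, with a mean of 0.21 ± 0.15. On arrays 1 and 3 the probes had opposite signs. All 5 probes of Flrt2 and Flrt3 were detected in both channels on all arrays. Among genes read as fully, 90.2% had a mean ratio under 1.5-fold in either direction.

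The arrays were compared in markers of the tissues an extract of this region can hold. Genes of airway-type epithelium were detected in both channels on all arrays for 9 of 9, among them the mucosal secretory genes Bpifa1 and Bpifb1, and so were 10 of 10 genes of skeletal muscle, 8 of 9 of bone and cartilage and 9 of 9 of blood and marrow. All 14 genes of neurons and 8 of 8 of astrocytes were too. Of the 11 genes of cerebellum with ratios, 6 were, and the defining granule cell gene Cbln3 and the Purkinje cell gene Car8 were not detected in the DEP channel on any array and were so in the CON channel on 2. The labelled tissue was thus present in every extract, together with nervous tissue.

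The markers of cerebellum, like Tenm1, had their lowest ratios on arrays 1 and 2. In the CON channel the signal of both was lower on arrays 3 and 4 than on arrays 1 and 2. The summed signal of the 11 genes was 73830 (73830.1), 72598, 9474 and 5300 (5299.84) in the CON channel on arrays 1 to 4. In the DEP channel it was 9894, 8392, 7669 and 5878. On arrays 3 and 4 much of the sum was Itpr1, at 5716 and 4053 in the CON channel. In the DEP channel Itpr1 read 4539 and 3856 on these arrays. Pcp2 read 22403, 24110, 1028 and 180 in the CON channel and 4073, 2695, 942 and 213 in the DEP channel. Zic1, a transcription factor of cerebellar granule cells, read 15728 and 13048 in the CON channel on arrays 1 and 2 against 1717 and 681 on arrays 3 and 4. The median log2 ratio of the list was -2.72, -3.55, -0.24 and 0.22, beside -4.23, -4.17 and -0.95 for Tenm1 on arrays 1 to 3. The lists of neurons and astrocytes had medians of -2.005 and -2.37 on array 1, -1.25 and -0.85 on array 2, -0.72 and -0.07 on array 3, and 0.27 and 0.12 on array 4.

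On array 4 the medians of these 3 lists were above 0, that is higher in the DEP channel. The value of Tenm1 on that array is not set against them, as its green signal of 39.1 lay close to the lowest detected signal of that channel, 37.0, and its red signal was not detected. On array 3, the single array where both channels of Tenm1 could be read, its ratio was -0.95 and the medians of the neuron, cerebellum and astrocyte lists were -0.72, -0.24 and -0.07. The summed signal of the 8 astrocyte genes in the CON channel was 176283, 160626, 57409 and 44872 on arrays 1 to 4. Aldoc alone gave 118781, 117075, 14451 and 6237 of this, so the high sums on arrays 1 and 2 rest largely on 1 gene. Slc1a3 was also highest there, at 4339 and 4652 against 934 and 736. S100b read 46465, 33521, 37102 and 34799. In the DEP channel the astrocyte sum lay between 40321 and 55305. The sum of the 14 neuron genes was 86434, 89837, 90128 and 42521 in the CON channel, low on array 4 alone. In the DEP channel it was 22623, 37728, 47144 and 57637. For skeletal muscle the median ratio was -0.72, -0.42, 0.75 and 0.76, with summed signals of 320217 to 736295 in the CON channel and 351072 to 545957 in the DEP channel. Blood and marrow had -0.68, -0.0033, 0.46 and 0.10, bone and cartilage -0.39, 0.23, 0.15 and 0.23, and airway-type epithelium -0.24, 0.35, -0.36 and -0.50. By mean ratio over the arrays the medians were -1.48 for cerebellum, -0.93 for neurons, -0.93 for astrocytes, 0.12 for skeletal muscle, 0.18 for bone and cartilage, -0.05 for blood and marrow and -0.02 for epithelium. The part of these tissues in the ratio of Tenm1 was not tested.

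**Figure D3:**
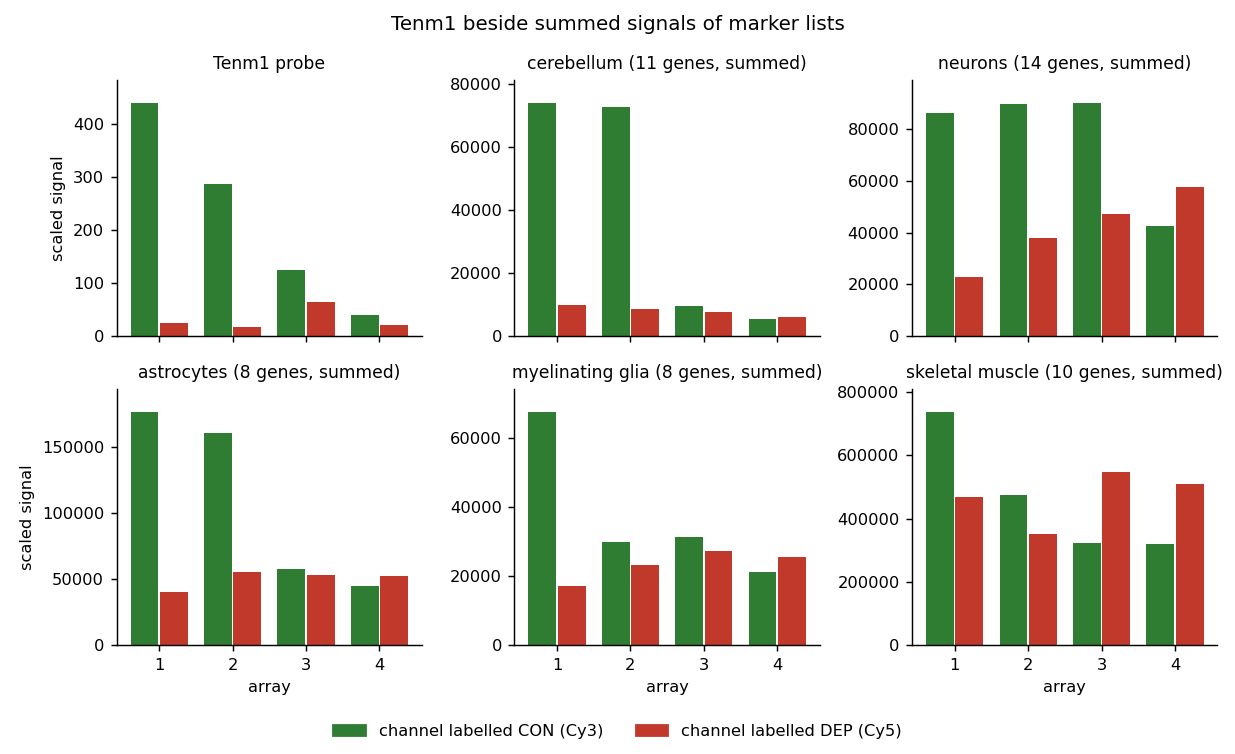
Bars give the scaled signal (linear axis from 0) of the Tenm1 probe and the summed scaled signals of 5 marker lists on arrays 1 to 4, green for the CON channel and red for the DEP channel. The green bars of the cerebellum list stand at 73830.1 and 72598 on arrays 1 and 2 and at 9474 and 5299.84 on arrays 3 and 4, and those of Tenm1 lie between 39.1 and 439.

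The genes whose 4 ratios lay nearest to those of Tenm1 were found by the root mean square difference over the 4 arrays, among 20301 genes with both channels detected on at least 2 arrays. The nearest was Rnf112, a ring finger gene of brain, at a difference of 0.40. Its ratios were -3.91, -3.87, -0.45 and -0.51. Crtam, an adhesion molecule of the immunoglobulin superfamily first studied in T cells, followed at 0.40 with -4.00, -4.60, -0.57 and -0.43. A transcript without a symbol here came next. Scn2a, a voltage-gated sodium channel of neurons, lay at 0.52 and the neurexin Nrxn3 at 0.57. All 5 were detected in both channels on all arrays, which Tenm1 was not. Being low on arrays 1 and 2 follows from how they were picked, and with a DEP channel of Tenm1 at background on 3 of 4 arrays the order among them is not settled.

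Binding partners of the 3 families, with proteins linked to those partners and 1 relative of the latrophilins, were taken as a list of 20 genes, none of them a member. They comprise the Unc5 receptors, their ligand netrin (Ntn1) and its other receptors Dcc and Neo1, the growth factor receptor Fgfr1, neurexins and neuroligins, the contactin Cntn6, the Shank scaffolds, dystroglycan (Dag1) and the endothelial relative of the latrophilins, Adgrl4. Of the 19 with ratios, 15 had a mean below 0 and 4 above, with a median of -0.75 beside 0.03 over all genes. A mean below 0 was found for 45.8% of all genes. By size, 8 of the partners were past 2-fold lower and 0 past 2-fold higher, against 4.37% and 2.37% of all genes. The 8 became 4 with normexp and loess and 3 with normexp and median centring. Over all 25694 genes, the 1124 past 2-fold lower became 370 and 220 under the same settings.

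In limma's moderated test with adjustment over all probes, 0 of the 19 genes had an adjusted p under 0.05, as did 0.0% of all genes, and an ordinary least-squares test also gave 0. At an unadjusted p under 0.05 there were 8, all lower, where 2226 of all genes (8.66%) were lower and 2574 higher at that level. The smallest adjusted p, 0.112, belonged to Unc5d, which was not detected in either channel on any array. The list was low on arrays 1 and 2, with medians of -1.12 and -0.81, and less so on arrays 3 and 4, at -0.37 and -0.02. The neuron markers had medians of -2.005, -1.25, -0.72 and 0.27 on the same arrays, with 14 of 14 means below 0, and their part in the ratios of the partners was not tested. Without arrays 1 and 2 together 0 of the 8 partners past 2-fold lower over all arrays were still so (Unc5d had no ratio on array 3). Another partner, Dcc, was the 1 of 18 past 2-fold lower then, beside 811 of 24574 genes.

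Neurexins, presynaptic receptors that latrophilins can bind, were among the lowest partners. Nrxn3 had ratios of -3.82, -3.44, -0.67 and -0.21 and a mean of -2.03 ± 1.86 (SD, n = 4 arrays; standard error 0.73, limma adjusted p = 0.249). The means of the other Nrxn3 probes ran from -2.40 to -0.31. Nrxn2 had -1.51 ± 1.34 (standard error 0.53, adjusted p = 0.243). Both Nrxn3 and Nrxn2 were lowest on arrays 1 and 2, and on array 4 they had -0.21 and 0.01. The neuroligin Nlgn3, a postsynaptic partner of neurexins, had -1.41 ± 0.85 (standard error 0.35, adjusted p = 0.168) and was below 0 on 4 of 4 arrays.

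The Unc5 receptors, through which FLRTs repel growing axons, are known in several tissues. Unc5a, which is found in the nervous system, had a mean of -1.31 ± 0.79 (SD, n = 4 arrays; standard error 0.32, limma adjusted p = 0.168), with -1.83, -1.73, -1.56 and -0.14 on arrays 1 to 4. Unc5c had -1.002 ± 0.97 (standard error 0.39, adjusted p = 0.269), but its other probe had -0.35. Unc5d, detected in neither channel on any array, had -1.31 ± 0.28 over 3 arrays, and no fold is given for it. Unc5b, the member of the family known from blood vessels, had 0.21 ± 0.46 (standard error 0.20, adjusted p = 0.596). Neo1, at 0.14 ± 0.17, Ntn1, at 0.03 ± 0.23, and Adgrl4, at 0.01 ± 0.33, also lay close to 0, with adjusted p values of 0.545, 0.906 and 0.974. Whether the neuronal and the vascular or widely expressed partners differ was not tested.

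**Figure D4:**
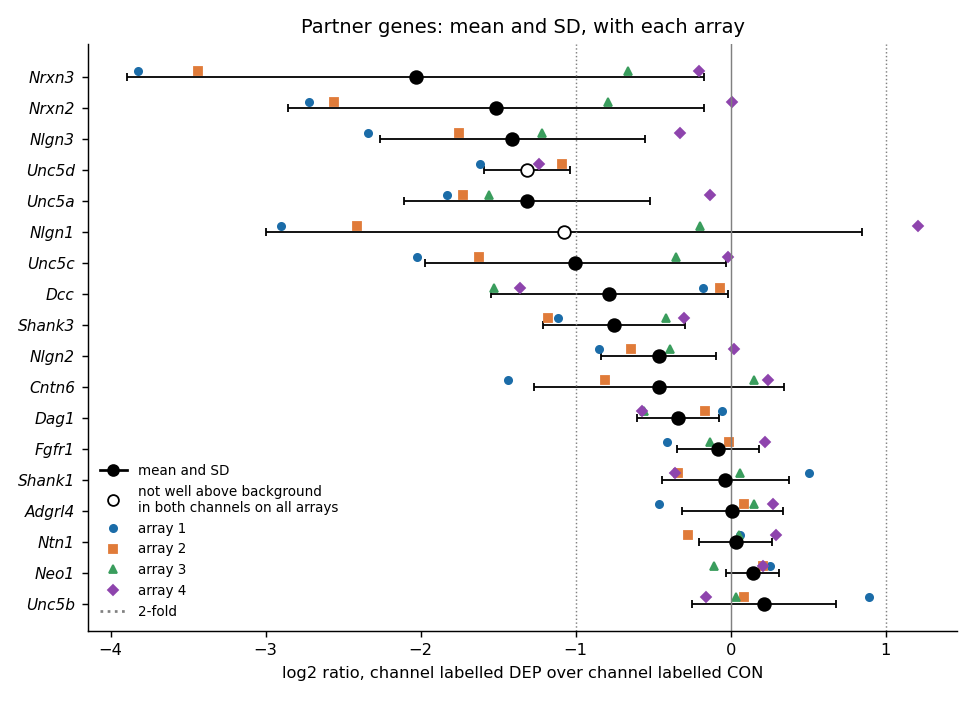
The x axis gives the log2 ratio (DEP over CON) for 18 of the partner genes with ratios, with the mean and SD in black (open where not detected in both channels on all arrays) and arrays 1 to 4 as small symbols. Nrxn3 and Nrxn2 have means of -2.03 and -1.51, with arrays 1 and 2 far to the left, while Unc5b, Neo1, Ntn1 and Adgrl4 lie at or just above 0.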

How the data were processed

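Middle ear RNA of 4 arrays (DEP against control, 4 ratios) was analysed. Spot values come from the authors' image quantification (Feature Extraction 10.10.1.1, by the submitters' processing notes); the deposited processed intensities are background-subtracted and dye-normalized, and the deposited log10 ratio is Cy5 over Cy3. It was converted to log2. Flagged spots (164 to 274 per array) and spots without a ratio (6179 to 8558 of 43020) were left out, and 31577 of 39429 probes had 3 or 4 ratios. Probes were named by accession through the RefSeq table of GRCm38.p6 (27655 named). Ratios were fitted with limma 3.58.1 under R 4.3.3 (intercept, eBayes, Benjamini-Hochberg over all probes); signals were scaled between arrays with limma's Aquantile. On simulated ratios of this comparison over 31577 probes, the test called 65 of 100 probes given a log2 change of 2, and 14 of 100 given a change of 1. Between 59.3% and 69.0% of probes were detected per channel and array; the number of arrays limits the precision. Pearson's r between arrays across probes ran from -0.22 to 0.61. The arrays lie on 1 slide, so no slide effect could be tested. 0 columns were left without a sample.

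The genes named were the members, the partner list (counted in full, with values for the Unc5 genes, neurexins and the farthest 4 on either side of 0; 1 gene is not reported here by name), the 5 genes nearest Tenm1 and the brightest or defining markers. Members and lists were chosen with earlier results of these data known. Members received no test. Further marker lists (fibroblasts, endothelium, forebrain and myelinating glia) had median ratios of -0.03, -0.19, -0.17 and -0.30. The alternatives were normexp on median signals (offset 50) with loess or median centring, the deposited ratio table, background filters, flagged spots kept, means over probes, other variance estimates, a floor at background, and arrays left out. The labels call the arrays biological replicates but tie none to an animal, so that a p-value covers the spread between these extracts only. The files hold no probe sequences.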

Additional observations from a re-analysis of the deposited data

Results flagged for a closer look

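In 3 of 69 sets of 4 values tested, the gap of 1 array to its nearest neighbour, over the whole range, passed Dixon's critical value, which chance does in about 1 in 20. In Tenm2 the scaled signal of the CON channel was 223 on array 3 and 245 to 248 on the others (gap over range 0.868), a small difference in a narrow range. The ratio of Unc5a was -0.14 on array 4, with the other arrays at -1.83 to -1.56 (0.842). That of Neo1 was -0.11 on array 3, with the other arrays at 0.21 to 0.25 (0.87).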

How the results depend on the processing

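The mean ratio of Tenm1 kept its sign under all 12 alternatives, from -3.12 to -0.94; it was -1.33 with normexp and loess and -1.35 with normexp and median centring, and could not be given where both channels had to be detected on all arrays. With 1 replicate left out it ranged from -3.12 to -2.02. The number of member genes past 2-fold lower, 1, became 2 with the mean of a gene's probes (Adgrl1 added), 0 with both channels required and 0 without replicates 1 and 2; it was 1 whichever single replicate was left out. The median over the members, 0.05, was -0.29 with the dim channel raised to background and -0.19 without replicates 1 and 2, and ranged from -0.15 (without replicate 1 or 4) to 0.12. Its sign also differed with normexp (-0.01 with loess, -0.06 with centring), where the median of all genes was -1.6e-05 and 0.11. The partner genes past 2-fold lower, 8, numbered 4 after normexp with loess, 3 after normexp with centring, and 1 without replicates 1 and 2 (Dcc, which is none of the 8), and 6 to 8 with 1 replicate left out. None of these partners had an adjusted p under 0.05 under the alternatives run; for that count the mean over probes, the floor and the removal of replicates 1 and 2 were not run. Over all genes, 1124 were past 2-fold lower and 610 higher, against 370 and 79 with normexp and loess and 220 and 385 with median centring, where limma also called 2988 genes in place of 0. Without replicates 1 and 2, 811 of 24574 genes were past 2-fold lower and 780 higher. Among the other members, Adgrl2 moved by more than its SD (0.02 with median centring, -0.27 with the floor), as did Flrt3 (0.49 with median centring), and Tenm2, Tenm3, Tenm4, Adgrl2 and Flrt2 changed sign under at least 1 alternative. With the floor, a spot detected in neither channel takes the ratio of the 2 floors, so the sign of Adgrl2 there is not that of the gene. The cause of the other changes was not tested. The floor and the removal of both replicates were chosen after the data were seen. Each ratio already pairs the DEP and the CON extract of 1 array. No paired analysis was possible because, beyond this, the arrays form 1 group with no second group to share replicate numbers. Low signal over background limits Tenm3, Adgrl2, Adgrl3 and the red channel of Tenm1.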

Other observations

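Some partners followed another order of the arrays than Nrxn3 and Nrxn2 did, an observation made after the values were seen. Dcc, the netrin receptor of growing axons, had ratios of -0.18, -0.07, -1.53 and -1.36 on arrays 1 to 4, with a mean of -0.78 ± 0.77 (SD, n = 4 arrays; limma adjusted p = 0.28). Its CON channel read 13479 and 12966 on arrays 1 and 2 and 41669 and 50248 on arrays 3 and 4, and 1 of the 3 probes for Dcc had ratios on enough arrays to be fitted. Dystroglycan (Dag1), a matrix receptor of muscle and epithelia, had -0.06, -0.17, -0.56 and -0.57, with a mean of -0.34 ± 0.26 (adjusted p = 0.29). For both genes arrays 3 and 4 were the lower pair, against arrays 1 and 2 in Tenm1, Nrxn3 and Nrxn2.

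Of the remaining partners, the scaffold Shank3 had a mean of -0.75 ± 0.46 and was below 0 on 4 of 4 arrays (limma adjusted p = 0.184). Nlgn2, the neuroligin of inhibitory synapses, had -0.47 ± 0.37 and Cntn6 -0.46 ± 0.80, with adjusted p values of 0.26 and 0.477. Fgfr1 at -0.08 ± 0.26 and Shank1 at -0.04 ± 0.41 lay near 0. Nlgn1, which was detected on 3 arrays in the DEP channel and on 2 in the CON channel, ranged from -2.90 on array 1 to 1.21 on array 4.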
